A study of Homo sapiens with 6 samples.

Results

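The baseline expression of the non-small cell lung cancer line H322, which carries wild-type EGFR per the labels, was compared with that of PC-9 and HCC827, whose EGFR the labels give as mutant. The members were the 3 control arrays of these lines, out of 6 arrays in the series, and were taken by their labels alone. The other 3 arrays held H322 with EGF at 100 µg/ml, and PC-9 and HCC827 each with the EGFR inhibitor erlotinib at 0.01 µM, all for 6 h, with the EGF dose written as the labels give it. Total RNA was hybridised to arrays that the series' design text names Clarion S. Each line and condition had 1 array, and nothing in the labels says how the control cultures were handled or whether a vehicle was added. The growth protocol, shared by all samples, names TNFa in the medium, and does not say whether the control cultures received it. With 1 wild-type line, genotype cannot be told apart from every other difference between the lines, and no difference below has a replicate check. A line also stands for its own culture and array, so fewer cells with a transcript and less transcript per cell cannot be told apart.

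EGFR is a receptor tyrosine kinase that dimerises when it binds ligands of the EGF family and signals through RAS to ERK and through PI3K to AKT. Activating mutations in lung adenocarcinoma leave the kinase active without ligand, and erlotinib blocks it. ERK activity is read out by its transcriptional targets, among them the DUSP phosphatases and Sprouty proteins that feed back on the pathway and the AP-1 factor FOSL1. 

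Expression is given as log2(intensity + 1) of the deposited values. A signal was taken as background, and called dim, when it lay no higher than the 95th percentile that the 612 negative control probe sets reached on its array, which was 7.47 in H322, 7.34 in PC-9 and 7.27 in HCC827. Between 48.8% and 49.8% of the 17687 genes lay above that level on the 3 control arrays, and the medians over all 6 arrays ran from 148 to 157 intensity units. All 6 epithelial markers, among them CDH1, EPCAM and KRT8, were above the negative controls in each. Of 5 alveolar markers, NKX2-1, NAPSA and SLC34A2 were above them in HCC827, and none was in H322 or PC-9. Basal and neuroendocrine markers (2 and 3 genes) were dim in all 3 lines. The leukocyte list had 0 of 14 members above the negative controls in H322, 2 in PC-9 and 1 in HCC827, and the fibroblast and endothelial list had 1, 3 and 2 of 13.

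H322 was counted as apart from the EGFR-mutant lines when it lay at least 2-fold above the higher or at least 2-fold below the lower of them, with dim signals first set to the background level of their array. A fold is given to the nearer mutant line, and is written "at least" where a dim signal stands on one side. H322 lay above both lines for 1035 genes (5.85%) and below both for 690 (3.90%). The median fold was 2.87 above and 2.81 below, and 45 genes above and 39 below were at least 16-fold apart. Either way 1725 genes were apart (9.75%). Among the 9973 genes that exceeded background in 1 line or more the shares were 10.4% and 6.92%, together 17.3%. Of the 612 negative control probe sets, 10 lay above (1.63%) and 3 below (0.490%), together 2.12%. These 13 came from the 52 negative controls past the background level on an array, as 19.2% above, 5.77% below and 25.0% either way. A bright negative control was thus apart more often than a bright gene above and either way, and slightly less often below. At least 4-fold apart were 268 genes above (1.52%) and 203 below (1.15%). Position alone carried no such distance: H322 was above both lines at any distance for 34.5% of genes and below for 32.3%, against 35.3% and 32.0% of negative controls. With the 99th percentile as background, which was 11.03 in H322, 10.16 in PC-9 and 9.74 in HCC827, the counts were 552 and 197. The genes nearest the threshold had gaps of 1.0016 and 0.9999 on the log2 scale above, and 1.0002 and 0.9989 below.

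**Figure D1:**
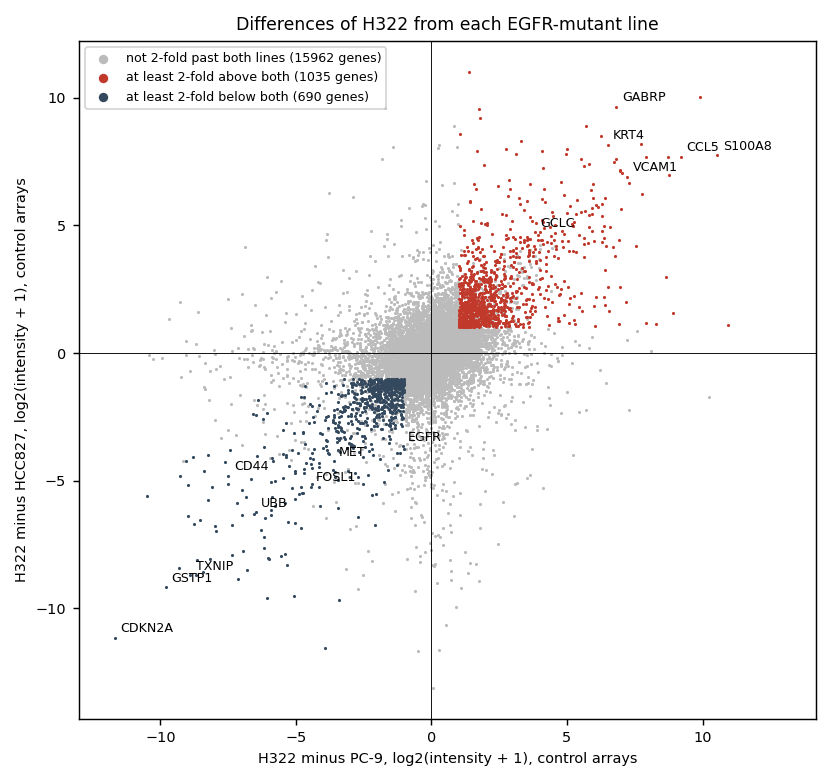
Each point is a gene, placed by its log2 difference between H322 and PC-9 (x axis) and between H322 and HCC827 (y axis) on the control arrays, before dim signals were set to the background level. The 1035 genes at least 2-fold above both lines lie at the upper right and the 690 below both at the lower left.

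The 3 lines were about as far from each other in every pairing. At least 2-fold apart were 3661 genes (20.7%) between H322 and PC-9, with 10.9% higher and 9.77% lower in H322, 3489 (19.7%) between H322 and HCC827, with 10.9% higher and 8.83% lower, and 3484 (19.7%) between PC-9 and HCC827, with 10.6% higher and 9.06% lower in PC-9. Pearson correlations across genes were 0.907, 0.910 and 0.907 for the same pairs, and 0.996 between the H322 control and EGF arrays. Genes are not independent replicates, so these describe the arrays only.

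The 15 largest gaps above both EGFR-mutant lines began with 3 secreted or surface proteins. CCL5, a chemokine that attracts T cells, read 15.50 in H322 against 6.29 in PC-9 and 7.80 in HCC827, 207-fold above the nearer line. S100A8, a subunit of the antimicrobial protein calprotectin, read 14.35 against 3.80 and 6.59, at least 129-fold. GABRP, the pi subunit of the GABA-A receptor, read 15.12 against 8.30 and 5.46, or 113-fold. Both V-ATPase subunits in the leading set were dim in the mutant lines: ATP6V1C2 read 14.14 against 5.42 and 6.44 (at least 111-fold), and ATP6V1B1 13.98 against 6.25 and 5.80 (at least 99.8-fold). KRT4, a keratin of mucosal epithelia, read 14.75 against 8.25 and 6.58, or 90.6-fold. The adaptor PSTPIP2 read 13.21 against 3.31 and 3.17 (at least 58.5-fold). The methyltransferase TMT1A read 13.90 against 8.07 and 6.51 (56.8-fold). CYP4F3, a leukotriene hydroxylase with close relatives whose probes may share signal, read 14.10 against 8.42 and 5.21 (51.6-fold). Enzymes of glycan and lipid synthesis followed: GALNT14, which starts mucin-type O-glycans, was at least 51.4-fold higher, CERS4, a ceramide synthase, at least 48.6-fold, and GNE, which starts sialic acid synthesis, at least 31.0-fold. The ligand WNT4 was 31.9-fold, the adhesion protein NECTIN1 31.7-fold and the leukocyte adhesion molecule VCAM1 at least 27.9-fold above the nearer line. The levels of VCAM1 were 12.14 in H322, 4.91 in PC-9 and 5.24 in HCC827, and on the EGF array H322 read 11.37.

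Of the 15 largest gaps below both lines, several belonged to genes dim in H322 and bright in both mutant lines. GSTP1, the pi-class glutathione transferase that conjugates electrophiles, read 6.17 in H322 against 15.96 in PC-9 and 15.36 in HCC827, at least 237-fold lower. CDKN2A, which encodes the cell cycle inhibitor p16INK4a, read 3.67 against 15.36 and 14.83, at least 165-fold lower. LCP1, an actin-bundling protein of leukocytes, read 8.20 against 16.15 and 15.18, 126-fold lower. RAC2, a small GTPase of blood cells, read 6.28 against 14.43 and 14.36 (at least 119-fold), and TNFRSF9, a T cell costimulatory receptor, 5.57 against 14.26 and 14.27 (at least 111-fold). Both are best known from blood cells. UBB, a polyubiquitin gene whose repeats resemble those of other ubiquitin genes so that its probes are uncertain, read 9.22 against 15.70 and 15.46, 75.4-fold lower. PSAT1, of serine synthesis, read 7.54 against 13.45 and 13.89, 60.3-fold lower. The membrane-to-actin linker MSN was at least 48.7-fold lower and the helicase-like DDX60L at least 45.7-fold. TFPI, the inhibitor of the tissue factor pathway, was at least 40.2-fold lower and PLAUR, the urokinase receptor, at least 38.7-fold. CSRP1, SLC43A3, TXNIP and EMP3 were lower by 38.7-fold and at least 34.2-, 33.7- and 33.3-fold.

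**Figure D2:**
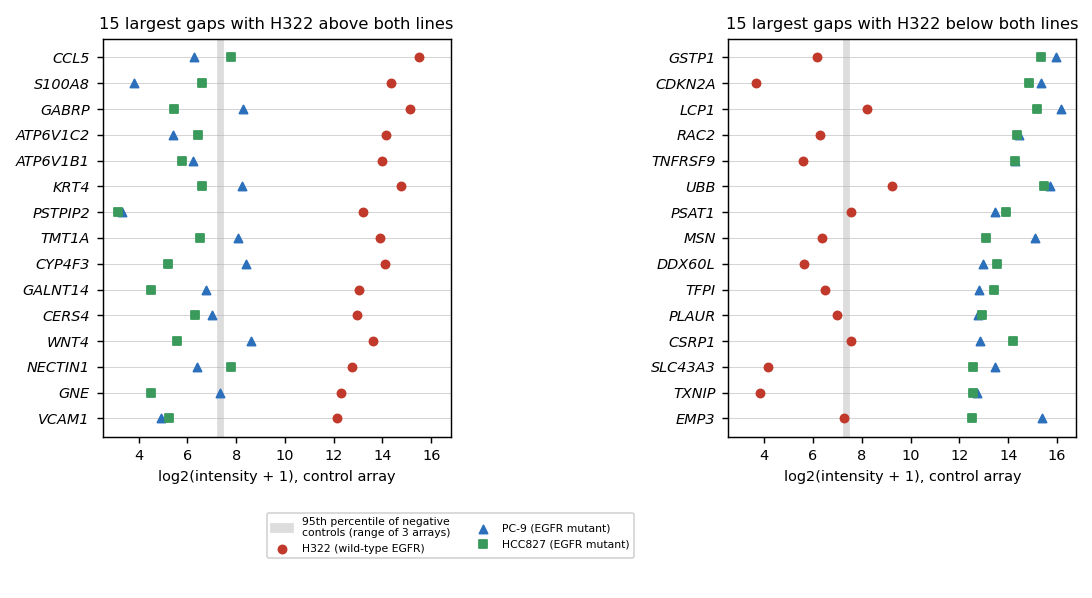
Log2(intensity + 1) on the 3 control arrays of the 15 genes with the largest gaps in each direction, with 1 point per line and the background level as a grey band. H322 lies to the right of both EGFR-mutant lines in the left panel, as for CCL5 at 15.50 against 6.29 and 7.80, and to the left of both in the right panel.

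EGFR itself was lower in H322. It read 11.62 in H322, 12.68 in PC-9 and 15.27 in HCC827, which is 2.08-fold below PC-9 and 12.6-fold below HCC827, so the distance within the mutant pair was larger than that from H322 to PC-9. LRIG1, which binds receptor tyrosine kinases and restrains them, was higher, at 13.41 against 9.31 and 6.15 (17.1-fold). Its relative LRIG3 read 13.22 against 9.16 and 10.27 (7.76-fold higher). ERBB3 (11.98, 12.43 and 12.08) and the feedback inhibitor ERRFI1 (15.87, 15.81 and 16.61) were not 2-fold apart from both lines. Nor were SOCS5 (10.07, 10.12 and 8.59), CBL (8.15, 9.30 and 8.17) or CBLB (11.21, 11.21 and 9.78), of which CBL and CBLB are ubiquitin ligases of the receptor. In all, 2 of 10 measured genes of the receptor list were above and 1 below; 1 listed gene was not analysed here. Among 25 other receptor tyrosine kinases 3 were above and 2 below. MET, the hepatocyte growth factor receptor, read 10.98 against 14.58 and 15.23, 12.2-fold lower, while MST1R, its closest relative, was 3.11-fold higher, IGF1R 2.81-fold and FGFR2 at least 6.04-fold.

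The EGF-family ligands shared no direction. EPGN read 10.21 in H322 and was dim in both mutant lines, at least 7.29-fold apart. EREG read 9.43 in H322, between the dim 4.20 in PC-9 and 13.41 in HCC827. HBEGF was bright in PC-9 alone (5.50, 10.83 and 6.39) and BTC in HCC827 alone (5.75, 6.20 and 8.10). TGFA (9.31, 9.20 and 9.11) and NRG1 (7.99, 8.98 and 9.05) were not 2-fold apart from both. Of the 9 measured ligands, 1 was above and none below.

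Of 26 ERK output and feedback genes measured, 1 was at least 2-fold above both lines (3.85%, against 5.85% of all genes) and 4 were below (15.4%, against 3.90%). As 24 of the 26 exceeded background in 1 line or more, the closer shares are those of such genes, 10.4% above and 6.92% below. The median log2 difference was −0.38 to PC-9 and −0.69 to HCC827, against 0.06 and −0.02 over all genes. These medians, like those of the other lists, are from values before dim signals were set to the background level. With dim signals so set, the ERK medians were −0.19 and −0.57. FOSL1 was the furthest, at 8.41 in H322 against 12.87 in PC-9 and 13.65 in HCC827, 22.0-fold lower. The cytokine LIF (7.07 against 10.08 and 9.05) and the ETS factors ETV4 (7.32 against 10.62 and 8.96) and ELK3 (9.79 against 11.58 and 11.64) were lower by at least 2.996-, at least 2.81- and 3.45-fold. The ETS factor ETV1, at 9.88 against 7.16 and 7.81, was 4.18-fold higher. The phosphatase DUSP6, at 10.42, stood beside PC-9 at 10.61 and under HCC827 at 13.40, and PHLDA1 (10.07, 11.02 and 13.14) and MYC (12.06, 12.73 and 13.90) had the same order. DUSP5 (12.84, 12.10 and 11.35), SPRY4 (9.06, 7.38 and 8.16) and the cyclin CCND1 (14.92, 14.61 and 14.49) were highest in H322 by less than 2-fold. The other members ranged from dim to bright: SPRY2 lay at 7.07 in H322 and IER3 at 14.30, with DUSP4 at 9.72, SPRY1 at 12.41, SPRED1 at 10.64, SPRED2 at 9.94, ETV5 at 9.87, PHLDA2 at 9.78, EPHA2 at 10.18, EPHA4 at 8.99, IL11 at 7.96, HMGA2 at 7.35 and UPP1 at 8.42. None of these was 2-fold apart from both lines.

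The same list was also read with erlotinib on the mutant lines and EGF on H322. On those 3 arrays 10 of the 26 genes were at least 2-fold above both lines and none below, where 5.18% and 3.99% of all genes were. FOSL1 read 10.61 in H322 with EGF, 7.78 in PC-9 and 8.47 in HCC827 with erlotinib, 4.39-fold above the nearer line. DUSP6 read 11.19, 5.50 and 10.09, and CCND1 15.18, 12.47 and 12.41. Treatment differs here on both sides of the comparison, so each line is also given against its own control: FOSL1 was 2.20 higher on the log2 scale with EGF in H322, and differed from control by −5.08 and −5.17 with erlotinib in PC-9 and HCC827.

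**Figure D3:**
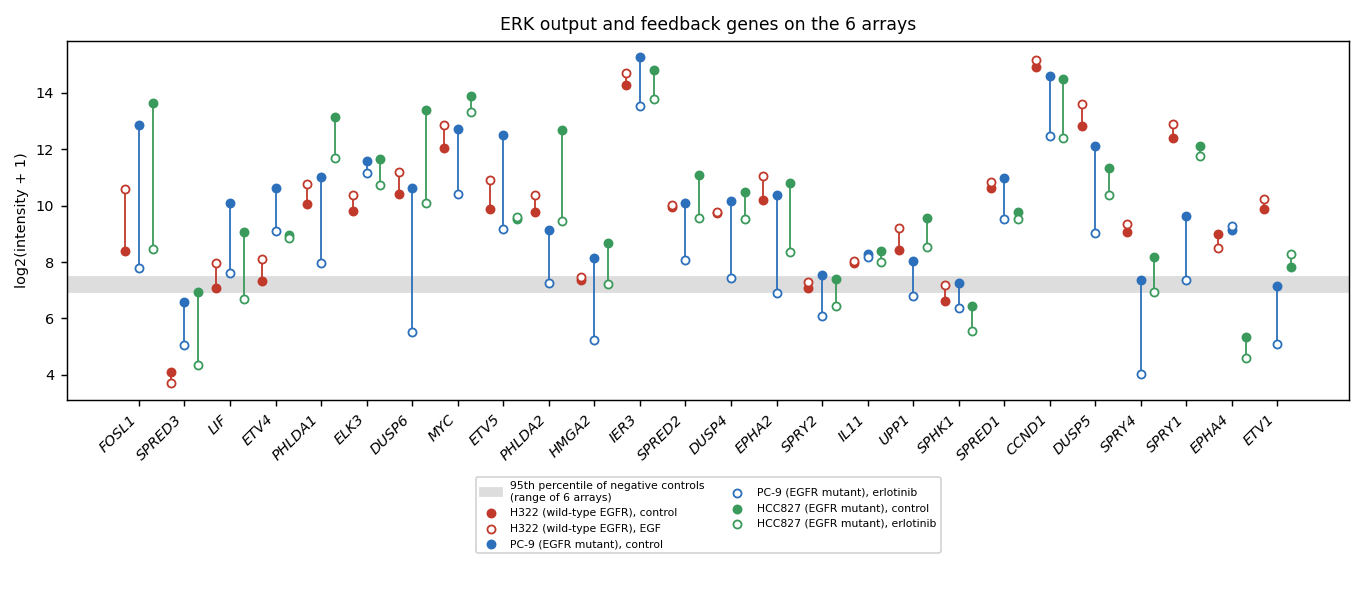
Log2(intensity + 1) of the measured ERK output and feedback genes on all 6 arrays, with filled points for control and open points for treated arrays of each line, and genes in the order of their baseline difference. FOSL1 lies at 8.41 in control H322 under 12.87 and 13.65, and at 10.61 with EGF above 7.78 and 8.47 with erlotinib.

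Immediate early genes did not follow in one direction, with 2 of 18 above (11.1%) and 3 below (16.7%). Counts of the gene lists, here and in other paragraphs, stand beside 5.85% above and 3.90% below over all genes. Over genes past background in a line the shares were 10.4% and 6.92%. The AP-1 factor JUN read 8.72 against 11.67 and 11.97 (7.77-fold lower), KLF6 10.90 against 14.13 and 13.16 (4.79-fold lower) and the matricellular protein CCN1 at least 13.7-fold lower. ZFP36, which destabilises inflammatory mRNAs, read 14.14 against 10.79 and 10.02, 10.2-fold higher. Among 22 genes that PI3K holds down through FOXO factors 3 were above (13.6%) and 2 below (9.09%). SESN3, a stress-induced inhibitor of mTORC1, read 11.70 and was dim in both mutant lines (at least 20.6-fold), and the repressor BCL6 was 8.04-fold higher. TXNIP, which binds thioredoxin and limits glucose uptake, read 3.83 against 12.73 and 12.54, at least 33.7-fold lower, and YPEL3 was at least 3.92-fold lower.

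**Figure D4:**
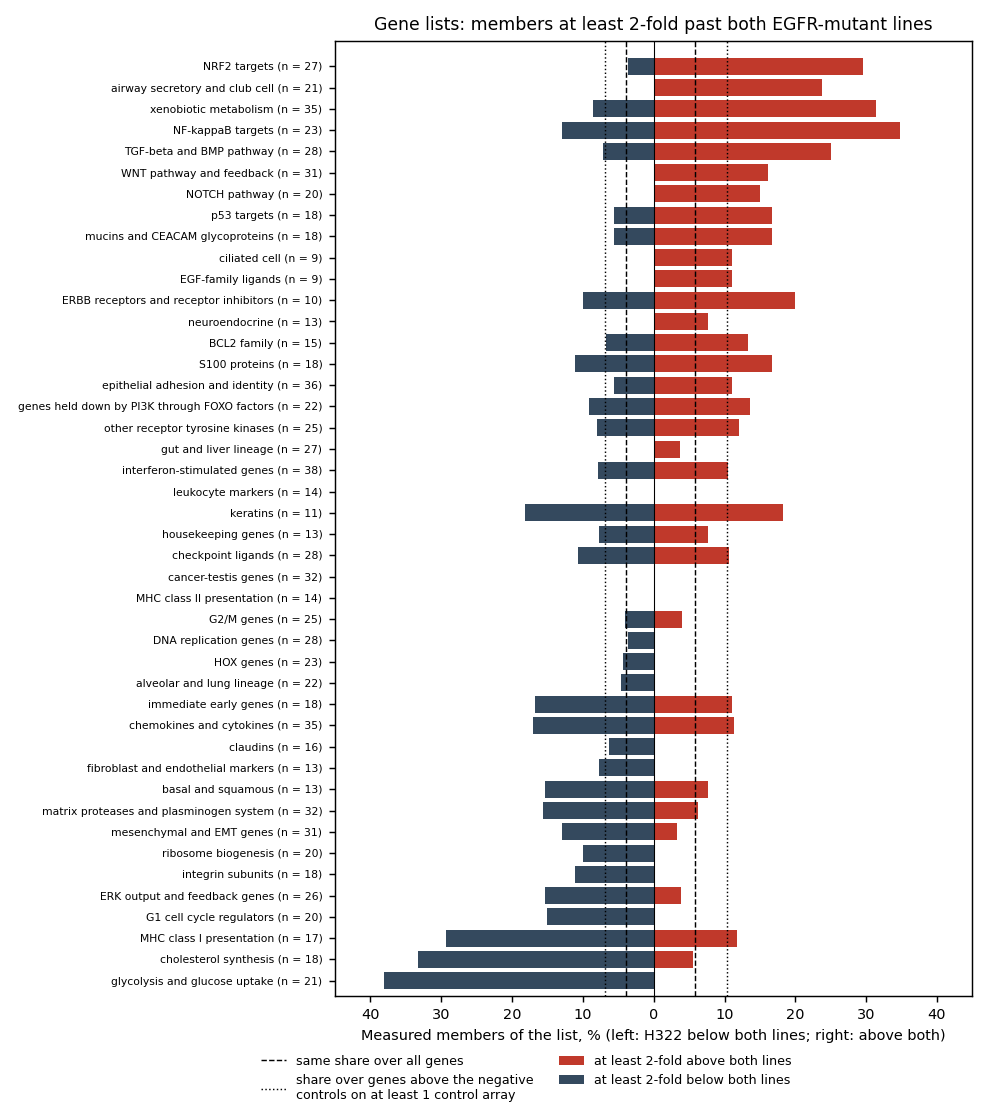
For 44 gene lists, the percentage of measured members with H322 at least 2-fold above both EGFR-mutant lines (right) and below both (left), with n measured members in each label. Dashed lines mark the share over all genes, 5.85% above and 3.90% below, and dotted lines that over genes with signal past background in a line, 10.4% and 6.92%.

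Among targets of NRF2, the factor that induces antioxidant and detoxifying enzymes, 8 of 27 measured lay at least 2-fold above both lines (29.6%) and 1 below (3.7%). Of genes past background in a line 10.4% lay above and 6.92% below, and all 27 targets exceeded background in 1 line or more. Against HCC827 alone 17 were at least 2-fold higher and 1 lower; against PC-9 alone 9 were higher and 4 lower, and the medians were 1.90 and 0.24. GCLC, the catalytic subunit of the rate-limiting enzyme of glutathione synthesis, read 15.91 against 12.10 and 11.18, or 13.97-fold. OSGIN1, an oxidative stress response gene, read 12.50 against 8.94 and 8.68 (11.8-fold), and ABCC2, an exporter of glutathione conjugates, 12.07 against 10.26 and 10.08 (3.50-fold). ME1, the NADPH-producing malic enzyme, read 15.59 against 13.83 and 11.04 (3.38-fold). The other 4 were NQO1, PGD, CBR1 and AKR1C2, of which AKR1C2 has a near-identical relative. PGD, of the pentose phosphate pathway, was 2.81-fold higher and CBR1, a carbonyl reductase, 3.12-fold. ABCC3, another exporter, was the one below. NRF2 binds the antioxidant response element, searched here as TGACNNNGC on both strands in the 250 bases before the start of each gene in RefSeq (GRCh38.p14). It was found in 3013 of 27305 promoters (11.03%), in 6 of the 20 listed targets with a promoter sequence, and in 3 of the 8 called above. Those 3 are shown with that of GSTP1, which held a match too although H322 was far below both lines for it; PGD and CBR1 were chosen for display after their values were seen. Capitals mark the match. ME1 is at chr6:83431052-83431301 on the minus strand, PGD at chr1:10398814-10399063, CBR1 at chr21:36069774-36070023 and GSTP1 at chr11:67583562-67583811, all on the plus strand. The matches begin 137, 201, 159 and 66 bases before the start.
ME1: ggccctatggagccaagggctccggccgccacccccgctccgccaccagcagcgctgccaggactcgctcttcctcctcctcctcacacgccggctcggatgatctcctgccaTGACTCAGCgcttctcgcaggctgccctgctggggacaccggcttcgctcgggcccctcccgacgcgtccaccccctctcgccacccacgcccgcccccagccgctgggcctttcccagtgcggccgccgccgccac
PGD: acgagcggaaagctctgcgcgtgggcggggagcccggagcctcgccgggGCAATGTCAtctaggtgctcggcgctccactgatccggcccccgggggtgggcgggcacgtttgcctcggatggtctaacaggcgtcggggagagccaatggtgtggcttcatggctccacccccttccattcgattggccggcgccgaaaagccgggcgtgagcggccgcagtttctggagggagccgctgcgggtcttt
CBR1: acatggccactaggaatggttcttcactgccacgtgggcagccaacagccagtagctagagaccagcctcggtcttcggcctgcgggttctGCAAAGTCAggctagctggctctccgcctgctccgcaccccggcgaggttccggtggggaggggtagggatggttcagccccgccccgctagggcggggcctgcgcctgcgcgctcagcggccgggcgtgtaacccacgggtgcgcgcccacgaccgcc
GSTP1: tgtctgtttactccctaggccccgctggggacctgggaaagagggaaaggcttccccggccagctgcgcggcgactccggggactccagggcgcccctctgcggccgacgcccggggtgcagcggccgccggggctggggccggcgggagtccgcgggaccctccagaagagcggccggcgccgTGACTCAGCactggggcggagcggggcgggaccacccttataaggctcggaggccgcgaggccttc
A match is only these letters in this window.

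Enzymes of xenobiotic metabolism had 11 of 35 above (31.4%) and 3 below (8.57%), against 10.4% and 6.92% of genes past background in a line. CYP1B1, which oxidises polycyclic hydrocarbons, read 13.10 against 6.81 and 8.74, 20.5-fold higher. ALDH3A2, a fatty aldehyde dehydrogenase, was 6.17-fold higher. GSTP1 and CYP4F3, given above, belong to this list, and so do targets shared with the NRF2 list.

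Glycolysis genes were lower where they were apart from both lines, with none of 21 measured members above both and 8 below (38.1%). Against PC-9 alone 1 was at least 2-fold higher and 11 lower, and against HCC827 alone 0 were higher and 10 lower. Of genes past background in a line 10.4% were above and 6.92% below, and 20 of the 21 members exceeded background. The median difference was −1.29 to PC-9 and −1.04 to HCC827. PGK1, the first ATP-forming enzyme of the pathway, read 12.01 in H322 against 14.48 and 15.71 (5.54-fold lower). LDHA, which reduces pyruvate to lactate, read 15.09 against 17.16 and 16.79 (3.24-fold lower). ALDOC, an aldolase, was dim in H322 at 5.36 against 11.29 and 10.44, at least 7.83-fold lower. PDK1, a kinase that keeps pyruvate from the mitochondria, read 9.07 against 12.61 and 12.03 (7.76-fold lower), and PGAM1, which has near-identical pseudogenes, 11.96 against 14.62 and 14.93 (6.32-fold lower). PFKP, PFKM and TPI1 made up the 8. On the treated arrays 1 of the 21 was above and 6 below. The core of the hypoxia response element bound by HIF factors, ACGTG, was searched on both strands in the same windows, where CACGTG counts once on each strand. It was found in 5101 promoters (18.7%), in 8 of the 20 listed genes with a promoter and in 3 of the 8 called below. LDHA was chosen for display after its values were seen. PGK1 is at chrX:78103998-78104247 and LDHA at chr11:18394313-18394562 on the plus strand, and ALDOC at chr17:28576896-28577145 on the minus strand, with 2, 5 and 3 matches in capitals.
PGK1: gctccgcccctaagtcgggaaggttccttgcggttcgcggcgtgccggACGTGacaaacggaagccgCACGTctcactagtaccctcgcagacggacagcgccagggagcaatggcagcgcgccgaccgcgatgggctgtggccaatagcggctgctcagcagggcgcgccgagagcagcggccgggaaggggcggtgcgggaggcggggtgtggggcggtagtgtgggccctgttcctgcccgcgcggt
LDHA: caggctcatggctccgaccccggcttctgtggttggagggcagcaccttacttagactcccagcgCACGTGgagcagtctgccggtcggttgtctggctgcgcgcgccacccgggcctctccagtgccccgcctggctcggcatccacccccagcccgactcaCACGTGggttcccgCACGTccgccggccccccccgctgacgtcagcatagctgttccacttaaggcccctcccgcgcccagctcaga
ALDOC: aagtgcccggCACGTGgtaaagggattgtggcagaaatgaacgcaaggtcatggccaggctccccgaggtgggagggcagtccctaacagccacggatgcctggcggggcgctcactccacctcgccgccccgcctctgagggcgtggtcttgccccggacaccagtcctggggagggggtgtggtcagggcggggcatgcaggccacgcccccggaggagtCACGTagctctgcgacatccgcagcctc
HIF activity and oxygen were not measured.

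Cholesterol synthesis had 1 of 18 above (5.56%) and 6 below (33.3%), against 10.4% and 6.92% of genes past background in a line. The distance was larger to PC-9, where 15 of the 18 were at least 2-fold lower and the median difference was −2.20; against HCC827 6 were lower and the median was −0.59. INSIG1, the sterol-regulated anchor of the SREBP system, read 8.83 against 12.26 and 11.94 (8.63-fold lower). The sterol enzymes NSDHL (10.49, 13.72 and 12.76), MSMO1 (14.09, 16.94 and 15.83) and EBP (12.08, 14.26 and 13.50) were 4.82-, 3.34- and 2.67-fold lower. HMGCS1 and LSS were the other members below and PMVK the one above.

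**Figure D5:**
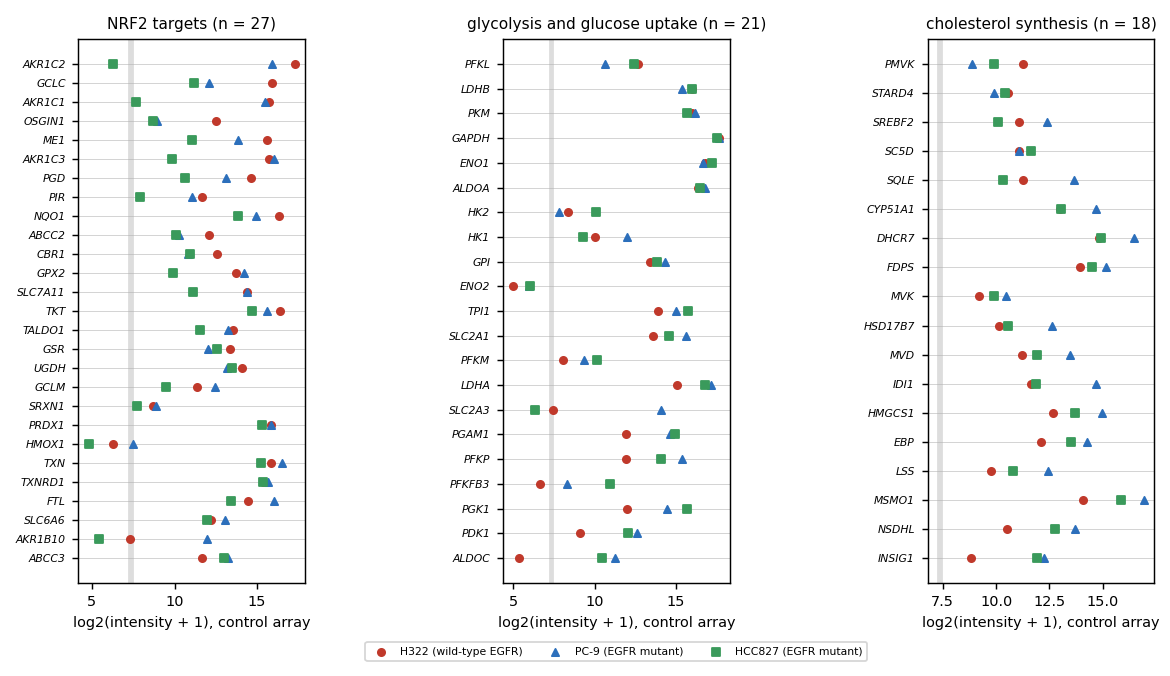
Log2(intensity + 1) on the control arrays of all measured genes of 3 lists, by line, in the order of the difference between H322 and the mean of the mutant lines; the grey band is the background level. H322 lies at least 2-fold above both lines for 8 of 27 NRF2 targets and below both for 8 of 21 glycolysis and 6 of 18 cholesterol synthesis genes.

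Inflammatory genes split by family. NF-kappaB targets had 8 of 23 above (34.8%) and 3 below. CD83, a marker of activated dendritic cells, read 14.42 against 10.32 and 6.50 (17.1-fold), CYLD, a deubiquitinase that restrains the pathway, was 3.69-fold higher. The acute phase gene SAA1, with a near-identical relative, was dim in H322 and at least 4.59-fold lower. Whether TNFa in the medium moved with these values was not tested. Chemokines and cytokines had 4 of 35 above and 6 below: beside CCL5, CCL22 was at least 10.6-fold higher, while CSF1, the macrophage growth factor, read 6.77 against 14.28 and 11.89 (at least 21.5-fold lower) and VEGFA 11.01 against 13.74 and 14.15 (6.63-fold lower).

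Interferon-stimulated genes were spread between the mutant lines. H322 lay between PC-9 and HCC827 for 24 of 38 (33.1% of all genes did), at least 2-fold higher than PC-9 for 22 and lower than HCC827 for 29. The medians were 2.58 and −2.70. IFIT1, an inhibitor of viral RNA translation named after its values were seen, read 9.72 in H322, 5.59 in PC-9 and 15.02 in HCC827. 4 members were above both lines and 3 below. The factor IRF1 read 14.30 against 10.29 and 11.39 (7.54-fold higher), GBP4 was 6.07-fold higher, and GBP1 and XAF1 were 8.02- and 4.21-fold lower; the guanylate-binding proteins have close relatives.

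MHC class I presentation had 2 of 17 above (11.8%) and 5 below (29.4%), against 10.4% and 6.92% of genes past background in a line. PSMB8, an immunoproteasome subunit, read 5.61 against 12.41 and 14.13 (at least 30.7-fold lower), and PSMB10, another one, 13.63 against 8.87 and 11.32 (4.96-fold higher). TAPBPL, a peptide editor, was 5.62-fold lower. HLA-F, whose probes may share signal with other HLA genes, read 8.66 against 12.47 and 12.56. None of 14 MHC class II members was apart from both, among them CTSS (11.66, 10.68 and 13.87) and RFX5 (12.08, 11.72 and 9.98). Checkpoint ligands had 3 of 28 above and 3 below: ICOSLG was 6.59-fold higher, while NT5E, which makes adenosine, the natural killer ligand MICB and the poliovirus receptor PVR were 8.28-, at least 16.1- and 3.002-fold lower.

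Airway secretory genes had 5 of 21 above (23.8%) and none below. Over all genes 5.85% were above, and 10.4% over genes past background in a line. SCGB1A1, the club cell secretoglobin, read 11.79 and was dim in both mutant lines, at least 21.8-fold apart. CYP4B1, also of club cells, read 11.64 against 5.72 and 5.97 (at least 19.7-fold), the antiprotease SLPI 16.83 against 14.41 and 13.24 (5.36-fold), and AGR2, a mucin-folding isomerase, 15.32 against 6.42 and 13.75 (2.98-fold). The club cell markers SCGB3A2 and MUC5B were dim in H322. Ciliated cell genes had 1 of 9 above (RFX3, at least 2.36-fold), neuroendocrine genes 1 of 13 (NCAM1, at least 21.4-fold, with CHGA, SYP and INSM1 dim), and gut and liver genes 1 of 27 (FOXA1, 2.08-fold), with none below in any of them. The alveolar and lung lineage list had none of 22 above and 1 below, and basal and squamous genes 1 of 13 above and 2 below. SOX2, a factor of airway and squamous cells, was the one above, at 14.48 against 5.82 and 11.49 (7.95-fold). SFN and S100A2 were lower by 2.18- and at least 2.47-fold.

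Epithelial adhesion and identity genes had 4 of 36 above and 2 below: the junction protein TJP3 was 11.7-fold, GRHL3 at least 5.69-fold and ELF3 2.41-fold higher, and occludin, OCLN, 2.31-fold lower. Among 11 keratins 2 were above and 2 below, KRT13 at least 5.65-fold higher, and KRT7 and KRT80 2.98- and 2.84-fold lower. Mucins and CEACAM glycoproteins had 3 of 18 above, among them MUC15 (at least 15.1-fold), MSLN (9.78-fold) and CD24 (2.99-fold), and 1 below, CEACAM6 (6.50-fold, with close relatives). S100 proteins had 3 of 18 above and 2 below. S100A9, the partner of S100A8, read 15.51 against 8.75 and 11.71 (13.9-fold higher), S100A14 was 3.63-fold higher, and S100A6 read 5.37 against 12.52 and 14.22, at least 33.1-fold lower. Claudins had none of 16 above and 1 below, CLDN12, 12.3-fold lower.

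Lists of matrix and cell adhesion to it held more members below both lines than above, by small counts. Of genes past background in a line 6.92% were below and 10.4% above. Mesenchymal genes had 1 of 31 above and 4 below (12.9%), and the distance was larger to PC-9, with 15 at least 2-fold lower than PC-9 and 4 lower than HCC827. The hyaluronan receptor CD44 read 7.90 against 15.39 and 12.71 (28.1-fold lower), TGFBI 9.49 against 15.94 and 13.52 (16.3-fold lower) and fibronectin, FN1, 5.38 against 14.65 and 10.19 (at least 6.61-fold lower); CAV1 was 2.29-fold lower. Integrins had none of 18 above and 2 below (11.1%), the collagen-binding ITGA2 (11.7-fold) and the laminin-binding ITGA3 (3.33-fold). Here too the distance was larger to PC-9, with 8 at least 2-fold lower than PC-9 and 2 lower than HCC827. In the protease and plasminogen list 2 of 32 were above (6.25%) and 5 below (15.6%). Tissue factor, F3, read 8.82 against 13.85 and 13.44 (24.6-fold lower), and the protease inhibitor TIMP1 9.71 against 13.28 and 14.57 (11.9-fold lower). In the fibroblast and endothelial list none of 13 was above and 1 below (7.69%), ENG, 5.44-fold lower. In the leukocyte list none of 14 was in either direction.

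The WNT list had 5 of 31 above both lines (16.1%) and none below both, while against PC-9 alone 5 were higher and 5 lower. Over all genes 5.85% were above both, and 10.4% over genes past background in a line. Beside WNT4, the receptor FZD1 read 12.77 against 9.17 and 8.90 (12.2-fold). LGR4 and RNF43, the receptor and the ubiquitin ligase that set WNT receptor levels, were 5.07- and 4.61-fold higher. NOTCH genes had 3 of 20 above and none below, the receptor NOTCH3 (3.33-fold), the target HEY1 (at least 2.87-fold) and the feedback inhibitor NRARP (at least 6.12-fold). TGF-beta and BMP genes had 7 of 28 above (25.0%) and 2 below (7.14%), against 10.4% and 6.92% of genes past background in a line. Among those above were the ligand BMP7 (at least 13.8-fold), the receptors TGFBR3 (at least 5.69-fold) and BMPR1B (5.69-fold) and the inhibitory SMAD6 (4.75-fold). HOX genes had none of 23 above and 1 below, HOXB7, 2.54-fold lower, and cancer-testis genes none of 32 in either direction, BRDT reading 9.43, 9.15 and 10.07 and CSAG1 10.28, 10.61 and 4.50.

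In the list of G1 regulators none of 20 was above and 3 below. These were CDKN2A and CDK4, the kinase it inhibits, at 12.33 against 13.59 and 16.73 (2.40-fold lower), and MTAP. MTAP, which the list counts, is a methionine salvage enzyme encoded beside CDKN2A and not itself a G1 regulator. It read 4.46 against 10.63 and 12.10 (at least 8.93-fold lower). DNA replication genes lay between the mutant lines for 19 of 28, against 33.1% of all genes, with medians of 1.34 to PC-9 and −0.75 to HCC827 and 1 member below both, the helicase subunit MCM7 (2.40-fold). G2/M genes were between for 12 of 25, above both at any distance for 7 and below both for 6, with the kinesin KIF23 2.99-fold above and the ubiquitin-conjugating enzyme UBE2C 4.35-fold below. Ribosome biogenesis genes had none of 20 above and 2 below, DDX21 (2.11-fold) and NOP2 (2.10-fold). Of 18 p53 targets 3 were above, MDM2 (4.42-fold), TP53I3 (3.81-fold) and GDF15 (2.20-fold), and 1 below, TIGAR (3.16-fold). In the BCL2 family, 2 of 15 were above, the survival factor BCL2 (at least 3.34-fold) and the death agonist BID (3.56-fold), and 1 below, the survival factor BCL2L1 (2.57-fold). Of 13 housekeeping genes GUSB was 7.57-fold above, and PGK1 below.

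The baseline differences were mostly present on the treated arrays. There, 685 of the 1035 genes (66.2%) were again at least 2-fold above both lines and 470 of the 690 (68.1%) below. Both H322 arrays lay beyond all 4 arrays of the mutant lines for 1009 and 652 genes. H322 with EGF was close to its control, with 20 genes (0.113%) at least 2-fold apart between its arrays and an SD of 0.25 over 8583 genes above background. At 2-fold or more on both sets of arrays, no gene went from above to below, and 4 went from below to above: FOSL1, DDX21, the ephrin ligand EFNB2 and NIPAL1, the last pair chosen after their values were seen. Among the named genes LIF and NOP2 also moved from below to above, by gaps of 0.35 and 0.29 on the log2 scale. The call ended, without turning to the opposite side, for 21 other named genes: F3, JUN, ELK3, ETV4, IGF1R, SOX2, FOXA1, ELF3, CD24, CAV1, KRT7, KRT80, SFN, RFX3, RNF43, PSMB10, PVR, CDK4, TIGAR, GDF15 and BCL2L1. Their treated gaps included −0.60 for F3, −0.49 for JUN and 0.15 for SOX2. DDX21, an RNA helicase of the nucleolus, read 12.53 against 13.84 and 13.60 at baseline and 13.16 against 11.86 and 12.11 with treatment. EFNB2 read 9.67 against 10.77 and 10.95, then 9.73 against 8.69 and 8.47, so that H322 moved by 0.06 while both mutant lines were lower with erlotinib. NIPAL1 read 8.31 against 10.15 and 10.66, then 9.28 against 7.84 and 7.35. FOSL1, DDX21 and NIPAL1 were higher in H322 with EGF as well as lower in both mutant lines with erlotinib.

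The stricter background level, the 99th percentile of the negative controls, ended the call of 42 of the 145 named genes that were apart from both lines. This level was highest in H322, at 11.03 against 10.16 in PC-9 and 9.74 in HCC827. A gene dim in H322 thus stayed below only where both mutant lines lay at least 2-fold past 11.03. MTAP, at 4.46 in H322 and 10.63 in PC-9, could not, so a lost call below does not mean that the lines were close. Among signalling genes these were EPGN, ETV1, ETV4, ELK3, LIF, FGFR2, JUN, CCN1 and YPEL3. In metabolism and cell cycle they were ALDOC, PDK1, INSIG1, MTAP, UBE2C, NOP2, TIGAR, GDF15, BCL2 and BCL2L1. Of the developmental genes RNF43, NOTCH3, HEY1, NRARP, TGFBR3, BMP7, BMPR1B and HOXB7 were lost, so that no NOTCH gene named here kept its call and the TGF-beta and BMP list went from 7 above to 2. The rest were the immune genes CCL22, CSF1, SAA1, GBP1, XAF1, TAPBPL, MICB and ICOSLG and the epithelial and matrix genes KRT13, KRT80, GRHL3, S100A2, CEACAM6, RFX3 and FN1. With this level the NRF2, airway secretory and NF-kappaB lists still had 8, 5 and 8 members above, while xenobiotic metabolism went from 11 to 7. Below both lines, glycolysis went from 8 to 5, cholesterol synthesis from 6 to 4, the ERK list from 4 to 1 (FOSL1) and chemokines and cytokines from 6 to 1. On the treated arrays NF-kappaB targets had 4 above, ribosome biogenesis genes 2 above and none below, and genes held down through FOXO factors 7 below.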

How the data were processed

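The authors deposited 1 table of normalized intensity values, 1 column per array, for which the submitters' processing notes name Affymetrix Expression Console. Not given in the sources used here were its version, background correction, summarisation, scaling and genome build. Per the labels' protocols, Trizol RNA (100 ng) was labelled as biotinylated cRNA. No column of another sample was present (0). The deposited intensity of 24351 probe sets was read; GEO's platform annotation gave 17709 of them 1 gene symbol, 0 several and 6642 none, and 20 genes with several probe sets were represented by the probe set with the highest mean, giving 17687 genes.

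From these values log2(intensity + 1) was computed, signals no higher than the 95th percentile of 612 negative control probe sets were set to that level, and a 2-fold threshold to both mutant lines was applied, with no test, since there was 1 array per line and condition. Precision is limited by the number of arrays. The genes named were all detected members of the ERBB, EGF ligand and ERK lists, the 15 largest gaps in each direction, and up to 4 apart from both lines in every other list, by gap (up to 2 by level where none was). Members of the NRF2, glycolysis and cholesterol lists named without values, to complete a count, were taken outside this rule after their values were seen and are not among the 145 named genes apart from both lines. The members and the 44 lists (1016 genes, 904 measured) were chosen with earlier results of these data known. Listed genes without a value were not analysed here. Alternatives were another offset (16), percentile (99), threshold (4-fold), centring, quantile normalization, single lines, treated arrays and filters. The calling script was tested on simulated data, with changes placed only in genes well above background and recovery required only at 4-fold or more. Folds that are bounds and calls near 2-fold were thus little tested. Promoter sequences were RefSeq's (GRCh38.p14). Python 3.11.15, pandas 2.3.3, numpy 2.4.6 and matplotlib 3.10.9 were used.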

Additional observations from a re-analysis of the deposited data

Results flagged for a closer look

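Outside the genes described above, 3739 probe sets without a gene name here were also read. How many of them exceeded background was not counted. H322 lay at least 2-fold above both EGFR-mutant lines for 92 of them and at least 2-fold below both for 75, together 4.47%, against 9.75% of genes and 2.12% of the negative control probe sets.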

How the results depend on the processing

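The counts of 1035 genes above and 690 below both lines, and of 179 list members apart from both, depended on the background level, the threshold and the line compared. With the 99th percentile of the negative controls they were 552, 197 and 113, and with a 4-fold threshold 268, 203 and 89. Against PC-9 alone they were 1933, 1728 and 347, with 9484 genes above at any distance, and against HCC827 alone 1927, 1562 and 367, with 9096 genes below at any distance; a single line is by construction the looser comparison. Restricted to genes above the negative controls on a control array, 3584 were above and 3106 below at any distance, from fewer genes. An offset of 16, no background level, centring, quantile normalization, the mean of a gene's probe sets and the treated arrays gave 917 to 1163 above and 668 to 818 below. Of the 145 named genes apart from both lines, 89 kept the call under the 10 alternatives other than the 4-fold threshold, and 71 under all 11. Among these alternatives, each single line, no background level and the filter on genes above the negative controls could not end a call by construction. On the treated arrays 4 changed direction, with log2 gaps of 2.13 for FOSL1, 1.06 for DDX21, 0.35 for LIF and 0.29 for NOP2, and 21 others, named above, lost the call; the cause was not tested. FOXA1 lost its call with centring, at 0.99. No paired analysis was possible because each line and condition had 1 array and no result comes from a test. What signal over background limits is the genes dim in a line, whose folds are bounds.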

Other observations

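The 3 nearest measured genes on each side, in RefSeq order, were read for the 5 largest gaps in each direction. Of 30 such neighbours of CCL5, S100A8, GABRP, ATP6V1C2 and ATP6V1B1, 2 were above both lines and 2 below, and of 30 neighbours of GSTP1, CDKN2A, LCP1, RAC2 and TNFRSF9 1 was above and 1 below, against 5.85% and 3.90% of all genes, so the neighbours were apart about as often as genes at large. The calprotectin neighbours S100A8 and S100A9 on chromosome 1 were both above, while S100A6, a calcium-binding protein beside them, was below. MTAP, read at 4.46 in H322, 10.63 in PC-9 and 12.10 in HCC827, was the neighbour of CDKN2A on chromosome 9 that was below. The inhibitor CDKN2B, between which and CDKN2A no measured gene lies, read 7.08, 10.28 and 7.93. CDKN2B was not called 2-fold apart from both lines, and nor were the neighbours IFNA8, IFNA1, DMRTA1 and ELAVL2. In H322 it was dim, under the background level of 7.47, which only 48.8% of all genes exceeded on that array. DNA copy number was not measured. The remaining neighbours apart from both lines, named after their values were seen, were RANBP17 beside GABRP, HPCAL1 beside ATP6V1C2 and the clock gene PER3 beside TNFRSF9, at 12.35 against 9.08 and 7.79.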
